A study of Mus musculus with 2 samples.

Results

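After a rod has answered to light, it has to switch the signal off again and bring its second messenger back. The 10 genes described here encode the proteins that do this: Grk1, Sag, Rcvrn, Rgs9, Gnb5, Guca1a, Guca1b, Gucy2e, Gucy2f and Pdc. They were taken by name for this role, not for their values, and are 10 of the 32285 genes in the count files, where each name matched 1 gene identifier. In the dark, cyclic GMP holds cation channels of the outer segment open. Light acts through transducin and phosphodiesterase to remove cyclic GMP, and recovery needs this cascade to be silenced and cyclic GMP to be made anew.

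Single-cell RNA sequencing was done on retinae of mice 6 to 9 weeks old. They carried 2 floxed Tgfbr2 alleles, count as functionally wild type and are labelled WT. Their background was Balb-C and CD1, and they were homozygous for the L450 form of RPE65. The study's methods state that both sexes were used, but not the sexes in each group. Both groups were dark-adapted for 18 h. Light-damaged mice then received 5000 lux of white light for 30 min and recovered for 6 h in dim light, whereas controls received no light, and the time of day at which controls were collected is not given, so light and time of day cannot be told apart. Each condition was 1 library of retinae pooled from 3 to 5 mice after removal of dead cells, so no difference between conditions has a replicate check, values carry no p, and intervals are at 95% and cover counting error only.

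The control library held 30605284 unique molecular identifiers (UMIs) and the light damage library 54413601. Of these, 18.7% and 32.7% were unspliced, that is, read in intron sequence, while the others were spliced or ambiguous (exon sequence that can come from either form). After filters on UMIs, mitochondrial share and doublets, 3669 control and 5593 light damage droplets remained, and 7 barcodes occurred in both sets. Droplets were named from marker UMIs, and 3225 control and 5037 light damage droplets were rods. Rods with under 15% unspliced UMIs are called cytoplasm-rich (2313 control, 1872 light damage) and rods with at least 40% nucleus-rich (597 and 2754), leaving 315 and 411 between the limits. Within 5 points of the 40% limit lay 110 control and 599 light damage rods. UMIs of rod markers were 10.5% and 9.02% of spliced plus ambiguous UMIs in cytoplasm-rich rods, and 4.26% and 3.32% in nucleus-rich rods. The libraries also differed in depth (a median of 1352 spliced plus ambiguous UMIs per nucleus-rich rod in control and 2433 after light damage) and in sex-linked RNA, since Xist stood at 2469 counts per 1000000 UMIs (CPM) in control nucleus-rich rods and at 0.229 after light damage. UMIs of 4 Y-linked genes in these rods were 52 in control and 2657 after light damage. The sex of the pooled mice and light therefore cannot be told apart. The part of depth in the results was not tested.

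The members fall into 4 steps of recovery, and positions are given on mm10. Grk1 (ENSMUSG00000031450, chr8:13405081-13421951) encodes the receptor kinase that starts shutoff in photoreceptors, and Sag (ENSMUSG00000056055, chr1:87803680-87845158) encodes rod arrestin, which acts in the next step. Rcvrn (ENSMUSG00000020907, chr11:67695326-67703333) encodes recoverin, a calcium sensor that holds the kinase Grk1 back while calcium is high. Rgs9 (ENSMUSG00000020599, chr11:109225355-109298129) and Gnb5 (ENSMUSG00000032192, chr9:75306288-75345876) encode the catalytic subunit and the beta subunit of the complex that speeds GTP hydrolysis by transducin. Gucy2e (ENSMUSG00000020890, chr11:69218117-69237036) and Gucy2f (ENSMUSG00000042282, chrX:142081160-142196931) encode the 2 membrane guanylate cyclases of photoreceptors. Guca1a (ENSMUSG00000023982, chr17:47394558-47400584) and Guca1b (ENSMUSG00000023979, chr17:47385393-47392967) encode the calcium-sensing proteins that activate them, and lie tail to tail with 1590 bases between them. Pdc (ENSMUSG00000006007, chr1:150319417-150333906) encodes phosducin, which binds the beta-gamma subunits of transducin. Rcvrn, Gnb5 and Pdc overlap genes on the other strand, which the strand-specific counting kept apart.

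Promoters are shown for Guca1a and Gnb5, whose unspliced UMIs were lower in light-damaged nucleus-rich rods, and for Grk1, whose spliced plus ambiguous UMIs were the highest of the members in nucleus-rich relative to cytoplasm-rich rods. They are RefSeq windows of 250 bases before to 50 after the start site on GRCm38.p6, at chr17:47400557-47400856 (minus strand), chr9:75306038-75306337 (plus strand) and chr8:13404831-13405130 (plus strand), read in the direction of transcription. Capitals mark TAATCC, the core bound by the photoreceptor factor CRX, or TGCTGA, the core of the site of the rod factor NRL, on either strand.
Guca1a: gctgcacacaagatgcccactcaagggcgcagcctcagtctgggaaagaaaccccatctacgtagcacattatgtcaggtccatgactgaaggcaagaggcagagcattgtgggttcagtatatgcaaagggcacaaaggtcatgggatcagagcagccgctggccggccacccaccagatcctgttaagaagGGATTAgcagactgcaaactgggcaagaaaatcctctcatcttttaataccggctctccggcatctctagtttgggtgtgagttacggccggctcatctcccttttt
Gnb5: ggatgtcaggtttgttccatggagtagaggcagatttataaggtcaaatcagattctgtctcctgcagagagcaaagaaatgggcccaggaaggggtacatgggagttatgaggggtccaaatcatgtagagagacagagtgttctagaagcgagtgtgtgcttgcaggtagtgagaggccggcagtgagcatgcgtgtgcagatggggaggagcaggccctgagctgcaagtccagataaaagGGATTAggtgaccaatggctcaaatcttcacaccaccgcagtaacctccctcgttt
Grk1: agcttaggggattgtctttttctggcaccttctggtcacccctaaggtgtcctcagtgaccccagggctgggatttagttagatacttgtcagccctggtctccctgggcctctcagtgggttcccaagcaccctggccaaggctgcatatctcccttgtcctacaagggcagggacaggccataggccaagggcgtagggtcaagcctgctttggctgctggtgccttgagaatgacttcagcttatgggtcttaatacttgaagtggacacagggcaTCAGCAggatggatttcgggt
The table held 8 of the 10 members, without Rcvrn and Guca1b. TAATCC was in the windows of 5 of these 8 (Sag, Gnb5, Guca1a, Gucy2e and, in 2 places, Gucy2f) and in 7.06% of 32851 promoters of the same length. TGCTGA was in 3 of the 8 (Grk1, Sag and Rgs9) and in 19.5% of all promoters, and Pdc held neither. These are matches of letters, not shown to be bound.

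In cytoplasm-rich rods the 10 genes took 4.30% of spliced plus ambiguous UMIs in the control library and 3.82% after light damage. None differed by 1.5-fold or more between the libraries, against 3.42% of 8977 genes that were lower and 14.8% that were higher by this much. CPM values count UMIs near the 3' end and were not divided by gene length, so each is compared between groups and not between genes.

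The calcium sensors, phosducin and Gnb5 were lower. Rcvrn stood at 7252 CPM in control (7191 to 7313) and at 5076 after light damage (5020 to 5132), a log2 ratio of -0.51 (-0.53 to -0.49), and was the member furthest from 0. Guca1a went from 5216 to 3870, a log2 ratio of -0.43 (-0.45 to -0.41), and its neighbour Guca1b from 1965 to 1702, a log2 ratio of -0.21 (-0.24 to -0.17). Both activators of guanylate cyclase and the sensor that restrains Grk1 therefore had fewer UMIs in the light damage library. Pdc stood at 9175 in control and 7709 after light damage, with a log2 ratio of -0.25, and Gnb5 at 472 and 402, with a log2 ratio of -0.23. For these 5 genes the Poisson intervals of the 2 libraries did not overlap. Intervals of the log2 ratio also lay off 0 for Grk1, Rgs9, Gucy2e and Gucy2f, which were higher. The share of all genes with such intervals was not computed.

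The other members were level or higher. Grk1 stood at 426 CPM in control (412 to 441) and 544 after light damage (526 to 562), a log2 ratio of 0.35 (0.28 to 0.42). Rgs9 was 766 and 932, with a log2 ratio of 0.28. The cyclases Gucy2e (444 and 497) and Gucy2f (219 and 258) were higher by log2 ratios of 0.16 and 0.23, though these are close to the median of all genes tested, 0.17. Sag differed least, with 17104 and 17188 CPM and a log2 ratio of 0.01 (-0.005 to 0.02). Less that median, Rcvrn (-0.69) and Guca1a (-0.60) were lower by more than 1.5-fold, and the share of all genes past 1.5-fold on this scale was not computed. On the same scale Gucy2e lay at -0.01 and Sag at -0.16.

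The genes of activation, a list of 9 that holds subunits of transducin, phosphodiesterase and the channel, had 1 member lower by 1.5-fold, Pde6g (the inhibitory subunit of phosphodiesterase), with a log2 ratio of -0.67, and a median of -0.13, beside -0.10 for the 10 recovery genes. Gnat1, the alpha subunit of rod transducin, had a log2 ratio of 0.05, while Gngt1, the gamma subunit, was at -0.50. Among 5 partners of the recovery proteins, Rgs9bp, which anchors the Rgs9 complex, was at 0.14, Rd3, which escorts guanylate cyclase to the outer segment, at 0.44, and the median was 0.14. The 1 partner past 1.5-fold was Arr3, cone arrestin, at 1.79 from 14 and 41 UMIs, and Unc119, a lipid-binding protein of photoreceptors, was at -0.40.

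**Figure D1:**
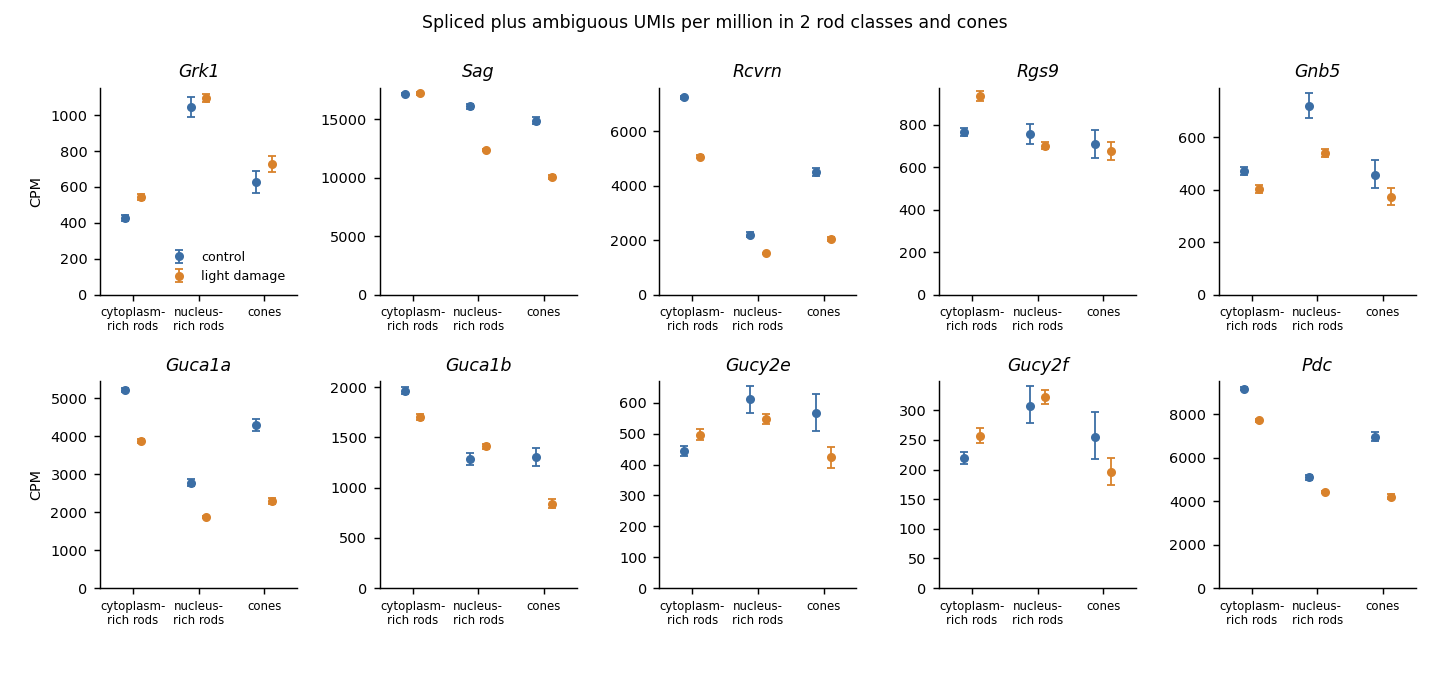
Spliced plus ambiguous UMIs in CPM (linear axes from 0) of the 10 genes in cytoplasm-rich rods, nucleus-rich rods and cones of the control (blue) and light damage (orange) library. Each point is 1 library with its Poisson 95% interval. Rcvrn and Guca1a lie lower after light damage in all 3 classes, and Grk1 is higher in nucleus-rich than in cytoplasm-rich rods of both libraries.

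In nucleus-rich rods none of the 10 genes differed by 1.5-fold or more, while 11.6% of 10220 genes were lower and 15.8% higher. The median of the members was -0.18 and that of all genes 0.02. Rcvrn was again lower, with 2204 CPM in control (2122 to 2288) and 1517 after light damage (1491 to 1543), a log2 ratio of -0.54 (-0.60 to -0.48). Guca1a went from 2771 to 1863, a log2 ratio of -0.57 (-0.63 to -0.52). Gnb5 (719 and 542) and Sag (16093 and 12341) had log2 ratios of -0.41 and -0.38. Pdc (5088 and 4405) was at -0.21. The intervals of the 2 libraries did not overlap for these 5 genes. Intervals of the log2 ratio also lay wholly on the higher side for Guca1b and on the lower side for Rgs9 and Gucy2e. How many of all genes had such intervals was not computed.

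The other members lay nearer to 0 when the whole class was summed. Grk1 stood at 1044 and 1095 CPM, with a log2 ratio of 0.07 (-0.01 to 0.15). Gucy2f, which is X-linked, stood at 308 and 323, and its log2 ratio of 0.07 (-0.09 to 0.22) was measured between pools that differed in Xist. Rgs9 (755 and 702) and Gucy2e (611 and 546) were lower by log2 ratios of -0.11 and -0.16, and Guca1b (1286 and 1412) was higher by 0.14. All 9 genes of activation were below 0 here, with a median of -0.41 and 1 lower by 1.5-fold (Gnb1, -0.71), whereas all 5 partners were above 0, with Rd3 at 0.60.

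Unspliced UMIs, which are closer to the newly made transcript, did not follow the spliced ones for all of the lower genes. None of the 10 passed 1.5-fold in nucleus-rich rods, beside 12.3% of 10523 genes lower and 12.9% higher. Rcvrn had 367 unspliced UMIs in control and 2063 after light damage, which is 185 and 190 CPM of unspliced UMIs and a log2 ratio of 0.04 (-0.12 to 0.21). Its spliced change lay below its unspliced change by 0.58 on the log2 scale (a difference of -0.58, -0.75 to -0.41). Over the whole class Pdc showed the same on a smaller scale, with 766 and 787 CPM of unspliced UMIs and a difference of -0.25 (-0.33 to -0.16) between its spliced and unspliced changes. Its unspliced ratio joined ranges that differed. Among rods of 40 to 50% unspliced UMIs it was -0.18, and at 50 to 60% -0.17 (-0.33 to -0.02). At 60 to 70% it was 0.29 (0.14 to 0.44), and at 70% or more -0.07. Sag was lower in unspliced UMIs too, at -0.11 (-0.14 to -0.09), and its spliced change lay further down (a difference of -0.27). The unspliced ratio of Sag joined ranges that differed. It was -0.34 among rods of 40 to 50% unspliced UMIs, -0.20 at 50 to 60%, 0.01 at 60 to 70% and 0.07 (0.02 to 0.11) at 70% or more. Gucy2e (-0.25) and Rgs9 (-0.17) also had intervals of this difference below 0. Rgs9 did not keep this direction over all ranges of unspliced share. Its spliced and unspliced ratios were -0.30 and -0.17 among rods of 40 to 50%, 0.32 and 0.08 at 60 to 70%, and -0.23 and -0.20 at 70% or more.

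For Guca1a and Gnb5, by contrast, unspliced and spliced UMIs were lower together. Guca1a had 157 CPM of unspliced UMIs in control (140 to 175) and 108 after light damage (102 to 114), a log2 ratio of -0.54 (-0.72 to -0.36), so that its spliced and unspliced changes differed by only -0.03 (-0.22 to 0.16). Gnb5 went from 997 to 715, a log2 ratio of -0.48 (-0.55 to -0.41), with a difference of 0.07 (-0.05 to 0.20). Grk1 (-0.03), Guca1b (-0.02) and Gucy2e (0.09) had unspliced ratios whose intervals held 0, and those of Gucy2f (0.07) and Rgs9 (0.06) lay just above it. The value of Gucy2f joined 0.38 (0.17 to 0.59) among rods of 40 to 50% unspliced UMIs and -0.22 (-0.36 to -0.07) at 70% or more. The unspliced median of the members was 0.01, against -0.32 for the 9 genes of activation, all of which were below 0 (1 of them, Gnb1, by 1.5-fold), and -0.06 for all genes.

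**Figure D2:**
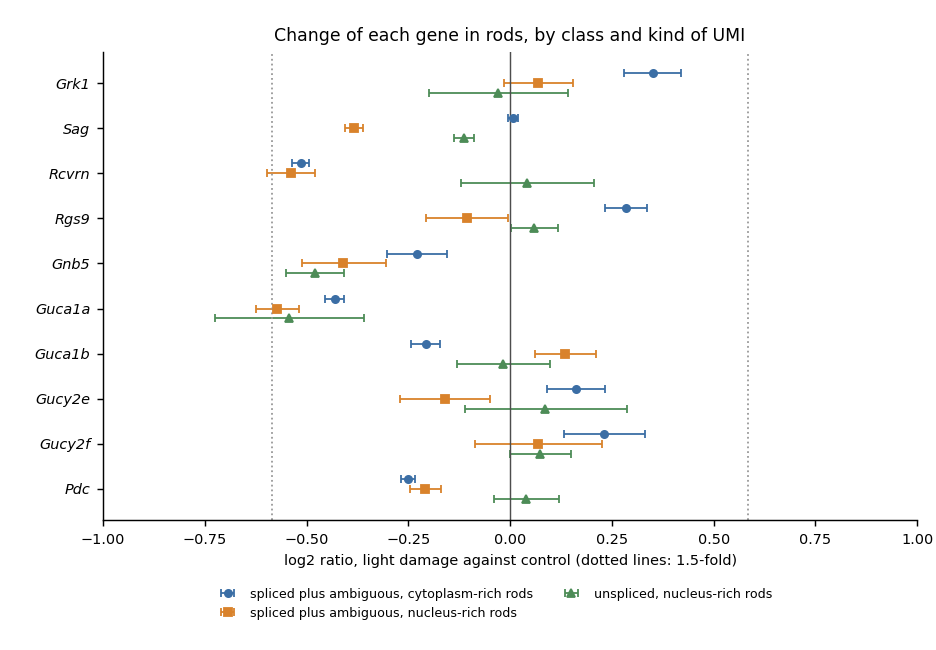
Log2 ratio of light damage against control for each gene, from spliced plus ambiguous UMIs in cytoplasm-rich (blue circles) and nucleus-rich rods (orange squares) and from unspliced UMIs in nucleus-rich rods (green triangles), with 95% intervals for counting error in 1 library per condition. All points lie inside the dotted 1.5-fold lines, and Rcvrn is low in both spliced measures but not in the unspliced one.

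Cytoplasm-rich rods held few unspliced UMIs. None of the 10 genes passed 1.5-fold there, beside 22.5% of 1625 genes lower and 9.05% higher, and only 3 had an interval narrower than 0.5 on the log2 scale. Rgs9 was at 0.04 (-0.02 to 0.10) and Pdc at 0.41 (0.26 to 0.57). Sag was at -0.29 (-0.50 to -0.08), but this joined opposite directions, at 1.03 (0.63 to 1.43) among rods of under 5% unspliced UMIs and -0.85 (-1.22 to -0.47) among rods of 5 to 10%, and it changed sign under 2 alternatives. Pdc therefore had more unspliced and fewer spliced CPM in light-damaged cytoplasm-rich rods. Rcvrn rested on 52 and 39 unspliced UMIs, and its ratio of -0.35 had an interval from -0.99 to 0.27. The intervals of Grk1 (0.32), Gnb5 (0.05), Guca1a (-0.39), Guca1b (0.06), Gucy2e (0.34) and Gucy2f (-0.03) held 0 too.

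Nucleus-rich rods of the 2 libraries did not have the same makeup, since their unspliced share was 61.3% in control and 55.4% after light damage. Rods were therefore also compared within ranges of unspliced share. Among rods of 50 to 60% (129 control, 826 light damage), Rcvrn stood at 2552 and 1487 CPM and Guca1a at 3094 and 1802, each a log2 ratio of -0.78. Both passed 1.5-fold in this range, which was chosen after seeing the data. The share of all genes past 1.5-fold was not computed for this range. In the whole nucleus-rich class 11.6% of genes were lower by this much. Guca1a was lower in all 6 ranges examined (0 to 5, 5 to 10, 40 to 50, 50 to 60, 60 to 70 and 70 to 100%), with log2 ratios from -0.83 to -0.30. Rcvrn was lower in all 6 too, from -0.99 to -0.40, and Pdc in all 6, from -0.51 to -0.24. Gnb5 was lower in all 6, from -0.64 to -0.13, but not in the rods of 15 to 40% that these ranges leave out, where it was at 0.17 (0.04 to 0.31). Those rods had unspliced shares of 25.4% in control and 33.0% after light damage. In them Rcvrn stood at 5553 CPM in control and 2584 after light damage, and Guca1a had a log2 ratio of -0.74, Pdc of -0.64 and Grk1 of 0.56. The median of all genes in these rods was 0.40, and less that median Grk1 lay at 0.16 and Gnb5 at -0.23. The unspliced UMIs of Guca1a were lower in the 3 ranges from 50% on, at -0.78, -0.57 and -0.68, but not among rods of 40 to 50% (-0.01, -0.56 to 0.59). Those of Gnb5 were lower in the 4 ranges from 40% on, at -0.64, -0.43, -0.51 and -0.41. Unspliced Rcvrn in the same 3 ranges from 50% on was at 0.04, -0.11 and 0.15, with every interval holding 0, and among rods of 40 to 50% it was higher, at 0.56 (0.04 to 1.12). The differences of sign between the 2 rod classes for Guca1b, Rgs9 and Gucy2e were not seen in all ranges: Guca1b was at -0.14 among rods of 50 to 60% Rgs9 at 0.32 among rods of 60 to 70%, and Gucy2e at 0.27 among those of 70% or more.

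For 3 further genes the value of the whole nucleus-rich class joined ranges that differed. Sag went from -0.53 among rods of 40 to 50% to -0.14 at 60 to 70% and -0.02 (-0.08 to 0.03) at 70% or more, where the libraries did not differ beyond counting error. Grk1 was at 0.38 (0.20 to 0.56) among rods of 40 to 50% and at -0.30 (-0.52 to -0.08) at 70% or more. Gucy2f was at 0.85 (0.44 to 1.28) and -0.50 (-0.86 to -0.14) in the same ranges, the first from 51 control UMIs.

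**Figure D3:**
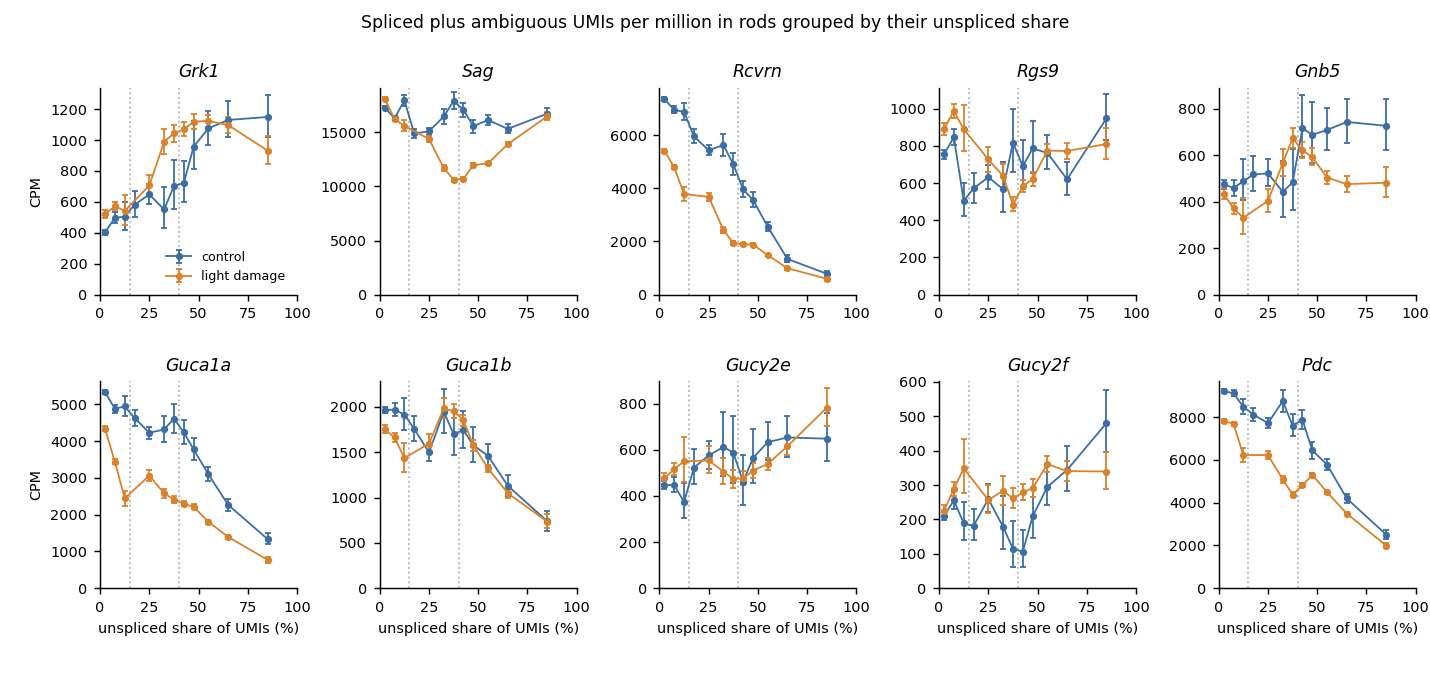
Spliced plus ambiguous UMIs in CPM (linear axes from 0) of each gene in rods grouped by their unspliced share, for the control (blue) and light damage (orange) library, with Poisson 95% intervals and dotted lines at 15% and 40%. Groups of under 20 droplets are left out. Rcvrn, Guca1a and Pdc decline along the axis in both libraries and lie lower after light damage, while Grk1 is higher in nucleus-rich than in cytoplasm-rich rods.

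The members differed widely between the rod classes of 1 library. In control, 4 were lower in nucleus-rich than in cytoplasm-rich rods by 1.5-fold or more and 2 higher, beside 15.9% and 53.5% of 8652 genes. After light damage 3 were lower and 1 higher, beside 12.1% and 56.1% of 10346 genes. The classes were cut on unspliced share, and the median gene was higher in nucleus-rich rods by 0.69 in control and 0.75 after light damage, so a level near 0 on this scale lies below most genes.

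Rcvrn was furthest down, with log2 ratios of -1.72 in control and -1.74 after light damage. It stood at 7357 CPM in control rods of under 5% unspliced UMIs and at 784 (with 201 droplets) in those of 70% or more. Guca1a (-0.91 and -1.05) and Pdc (-0.85 and -0.81) were also lower in both libraries, and Guca1b passed 1.5-fold in control (-0.61) but not after light damage (-0.27). Grk1 was furthest up, with log2 ratios of 1.29 (1.20 to 1.39) and 1.01 (0.95 to 1.07). It went from 402 CPM in control rods of under 5% to 1149 in those of 70% or more. Gnb5 was at 0.61 and 0.43, Gucy2e at 0.46 and 0.14, and Gucy2f at 0.49 and 0.33. Less the median gene, Grk1 remained above 0, at 0.60 and 0.26, whereas Gnb5 (-0.085 and -0.32), Gucy2e (-0.23 and -0.62) and Gucy2f (-0.20 and -0.43) lay below it. Sag was at -0.09 and -0.48, and Rgs9 at -0.02 and -0.41. The kinase Grk1 and its inhibitor Rcvrn thus stood at opposite ends of the set. Of the 9 genes of activation, 6 in control and 8 after light damage were lower by 1.5-fold in nucleus-rich rods, with medians of -0.78 and -1.05, beside -0.05 and -0.34 for the recovery genes. Of the partners, Rgs9bp (0.91 and 0.92) and Ppef2, a protein phosphatase of photoreceptors (1.09 and 1.20), were higher. Less the median gene, Rgs9bp lay at 0.21 and 0.17 and Ppef2 at 0.39 and 0.45. Unc119 was lower (-1.20 and -0.73), and Rd3 was at -0.15 and 0.01. Arr3 was at 1.01 after light damage and had under 50 UMIs in control.

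The share of a gene's UMIs that were unspliced also spread widely. In control nucleus-rich rods it was 81.7% for Gucy2f, 75.5% for Rgs9, 68.7% for Gnb5 and 44.0% for Sag, and these are the 4 longest members, spanning 115.8, 72.8, 39.6 and 41.5 kb. The other 6 span 6 to 18.9 kb and had shares from 8.23% (Guca1a) to 31.6% (Guca1b), with Rcvrn at 11.7%. The median of all 8019 genes with at least 50 UMIs there was 57.7%, so 7 of the 10 members lay below it. After light damage the order of the 4 long genes was the same, with 77.8%, 73.1%, 62.1% and 42.6%. Longer genes offer more intron sequence to be read, and the part of length in these shares was not tested.

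**Figure D4:**
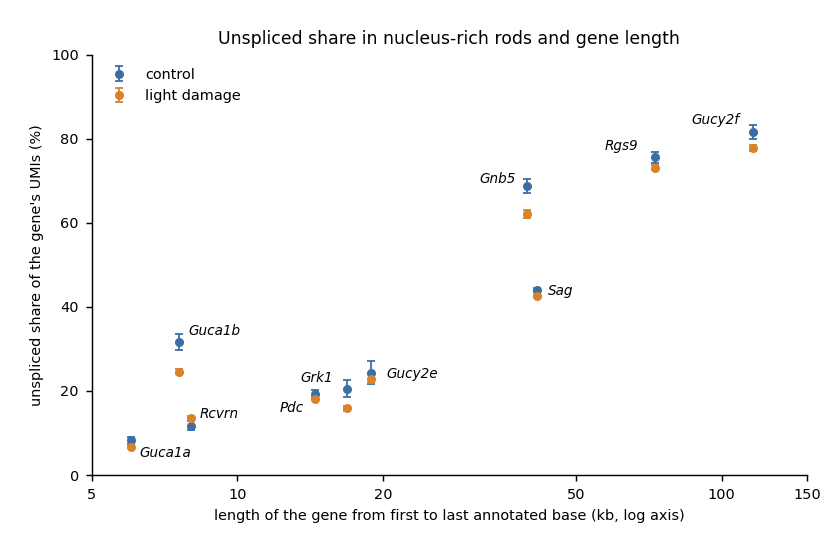
Share of each gene's UMIs that were unspliced in nucleus-rich rods (linear axis) against the length of the gene (log axis), for the control (blue) and light damage (orange) library, with exact binomial 95% intervals. Gucy2f, Rgs9, Gnb5 and Sag, the longest genes, lie at the top.

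Rgs9 stood apart in cytoplasm-rich rods. There 9 of the 10 members had unspliced shares of at most 3.71% in control and 3.86% after light damage, and the median gene 1.56% and 1.37%. For Rgs9, 43.5% of UMIs were unspliced in control (4396 UMIs beside 5702 spliced or ambiguous ones) and 42.4% after light damage (4341 beside 5894). Shares of 40% or more were held by 6.59% and 5.70% of genes. Rgs9 alone made up 1.15% and 1.19% of all unspliced UMIs of this class and was the gene of rank 11 and 9. GENCODE lists 5 Rgs9 transcripts, 4 of them coding, whose 3' ends lie at 109225355, 109225361, 109235057, 109239511 and 109256002 on the minus strand of chr11. The count files do not show which of these ends the unspliced UMIs come from.

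Cones were 179 control and 101 light damage droplets, named from cone markers such as Opn1sw, Pde6h and Arr3. They were not clean. UMIs of rod markers were 8.07% of those in control cones, close to the 10.5% of cytoplasm-rich rods, and 4.07% in light-damaged cones, and Gnat1, a rod gene, stood at 9690 and 5371 CPM. In addition, 2 control and 7 light damage cones held 50000 UMIs or more, up to 209677, which made up 16.4% and 37.9% of the cone UMIs. Against cytoplasm-rich rods, 2 members were lower by 1.5-fold in control cones and none higher (9.38% and 30.6% of 8080 genes), and 5 were lower in light-damaged cones and none higher (8.82% and 37.9% of 8617 genes). In control these were Rcvrn (-0.69) and Guca1b (-0.59), with the others between -0.40 (Pdc) and 0.55 (Grk1). After light damage they were Rcvrn (-1.32), Guca1b (-1.02), Pdc (-0.87), Sag (-0.77) and Guca1a (-0.76), with the others between -0.47 (Rgs9) and 0.42 (Grk1). Between the libraries, 4 members were lower by 1.5-fold in light-damaged cones and none higher, beside 9.28% and 28.5% of 6165 genes. These were Rcvrn (4507 and 2040 CPM, log2 ratio -1.14), Guca1a (4299 and 2290, -0.91), Pdc (6958 and 4208, -0.73) and Guca1b (1303 and 842, -0.63). The others lay between -0.56 (Sag) and 0.22 (Grk1), with Rgs9 at -0.07, Gnb5 at -0.30, Gucy2e at -0.42 and Gucy2f at -0.38. Gnat1 itself had a log2 ratio of -0.85 and 8 of the 9 genes of activation were lower by 1.5-fold. Their median was -1.06, beside -0.49 for the members. The part of rod RNA in the ratios of these droplets was not tested.

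A cleaner view came from cones whose cone marker UMIs were at least 50% of their rod marker UMIs, a limit chosen after seeing the data. It left 7 control and 55 light damage droplets, and Gnat1, itself among the rod markers of this limit, stood at 1865 and 1274 CPM. In the 55 light-damaged droplets Gnat1 had a log2 ratio of -3.23 to cytoplasm-rich rods. Grk1, with 600 CPM (537 to 669), was level with rods at 0.14 (-0.03 to 0.31). Gnb5 (293, -0.46), Rgs9 (606, -0.62) and Guca1a (2104, -0.88) came next. Cones are known to use these 4 genes, and to hold Gucy2e, Rcvrn and Pdc as well. Sag (7372, -1.22), Gucy2e (177, -1.49) and Pdc (2375, -1.70) were lower, and Rcvrn (1283) was at -1.98. The lowest members were Guca1b (385), at -2.15 (-2.35 to -1.95), and Gucy2f (53.4), at -2.27 (-2.85 to -1.74). The 9 genes of activation ran from -3.49 (Gnb1) to -1.70 (Gngt1) in the same droplets, with a median of -2.61. All but Gnb1 and Slc24a1 (-3.11) were rod markers of this limit, so their ratios depended on the choice of droplets. Pdc, Rcvrn, Guca1b and Gucy2f lay within this spread and above its median. Arr3, cone arrestin, stood at 4718 CPM in these droplets and at 6.49 in rods, but had been used to name them.

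**Figure D5:**
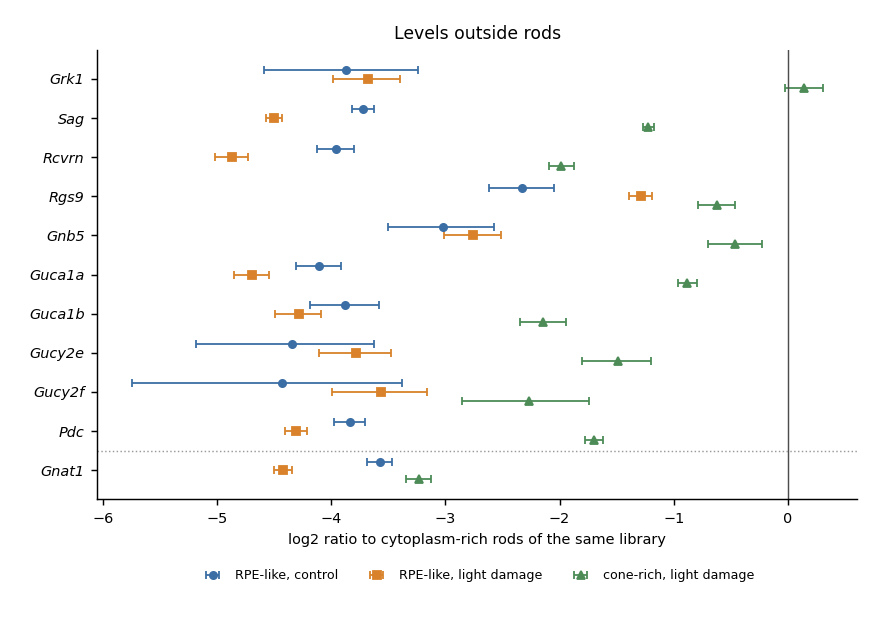
Log2 ratio of each gene to cytoplasm-rich rods of the same library in RPE-like droplets of the control (blue circles) and light damage (orange squares) library and in cone-rich droplets of the light damage library (green triangles), with 95% counting intervals. Gnat1, below the dotted line, is a rod gene shown for comparison. Rgs9 lies at -2.33 and -1.29 in RPE-like droplets, to the right of the other genes, and Grk1 at 0.14 in cone-rich droplets.

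Outside photoreceptors, the levels of the members were set beside that of Gnat1. RPE-like droplets (named from genes of the retinal pigment epithelium, such as Ttr, Rgr and Rpe65) numbered 156 in control and 298 after light damage. Gnat1 stood there at 969 and 559 CPM, below the 10365 and 10363 of barcodes under 50 UMIs, which sample free RNA, and its log2 ratios to cytoplasm-rich rods were -3.58 and -4.42. The 8 members other than Rgs9 and Gnb5 had log2 ratios to rods between -4.43 (Gucy2f, 7 UMIs) and -3.72 (Sag) in control. After light damage they lay between -4.87 (Rcvrn) and -3.56 (Gucy2f, 52 UMIs).

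Rgs9 was the member nearest to its level in rods in both libraries. It stood at 153 CPM in control RPE-like droplets (125 to 185) and at 381 after light damage (357 to 407), a log2 ratio of 1.32 (1.03 to 1.63) between the libraries. Against cytoplasm-rich rods it was at -2.33 (-2.62 to -2.05) in control and -1.29 (-1.39 to -1.19) after light damage. Gnat1 differed between the libraries in the other direction, at -0.79 (-0.93 to -0.66), as did Rcvrn, Guca1a, Sag, Pdc and Guca1b. Gucy2f (7 and 52 UMIs, -0.04 to 2.48), Gucy2e (0.73, -0.08 to 1.62) and Grk1 (0.54, -0.16 to 1.31) had ratios above 0 like Rgs9, from few UMIs and with intervals that held 0, and Gnb5 was at 0.03. The 909 UMIs of Rgs9 after light damage were spread over droplets, with no more than 3.19% of them in any 1. Rgs9 stood at 165 CPM in free RNA of that library and at 48.8 (28.4 to 78.1) in its 38 microglia-like droplets. The light damage RPE-like droplets were deeper, with a median of 5657 spliced plus ambiguous UMIs against 2544, and the part of depth in the difference was not tested.

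Gnb5 was the next nearest, at -3.02 (-3.51 to -2.57) in control and -2.76 (-3.01 to -2.51) after light damage, with 58.2 and 59.6 CPM. In bipolar-like droplets (27 control, 17 light damage), Gnb5 stood at 321 (201 to 485) and 380 (292 to 486) CPM, and its log2 ratios to rods were -0.56 (-1.23 to 0.04) and -0.08 (-0.47 to 0.28). Gnat1 was at -2.34 and -5.18 in the same droplets. Gnb5 is known to partner other members of the RGS family in many neurons. Rcvrn in the light-damaged bipolar-like droplets was at 109 and Grk1 at 30.2 CPM.

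The genes whose pattern came nearest to the mean of the members were sought among 6718 genes with at least 10 UMIs in each of 6 groups (cytoplasm-rich rods, nucleus-rich rods and cones of both libraries), by Euclidean distance between centred log2 CPM. They were Nubp2 (0.20), Fam57b (0.21), Rrp9 (0.21), Ruvbl1 (0.22) and Naa20 (0.23), with a median distance of 1.35 over all genes. Of the members, Sag was as near to that mean as these (0.21), while Rcvrn (1.64) and Grk1 were further from it than the median gene.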

How the data were processed

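Per the labels and the study's methods, the authors demultiplexed the 10x 3' reads with Cell Ranger 7.0.1, mapped them with salmon 1.10.1 and quantified them with alevin-fry 0.8.1 against spliced and intron sequence of mm10, forward strand only. The deposited files hold the resulting counts of UMIs per gene and barcode, split into spliced, ambiguous and unspliced. The study's later removal of empty droplets, doublets and free RNA is not in these files. Droplets had at least 1464 (control) or 1614 (light damage) UMIs, the point where the ranked UMI curve bends, and under 10% mitochondrial UMIs. Scrublet (scanpy 1.11.5) then left out 114 and 276 as doublets. Classes were named from marker UMIs, and free RNA was read from barcodes under 50 UMIs. UMIs were summed per class and library and divided by the class total. Intervals are exact (Poisson for CPM, binomial for shares and ratios), genes needed 50 UMIs over both groups to be tested, and a gene past 1.5-fold was counted. With 1 library per condition no test was possible. Intervals of a difference between ratios are normal approximations from these counts. All 10 members were described in every comparison, by value or range, with up to 5 genes of nearest pattern. One gene of the activation list is not reported here, and that list was summarised over the other 9. The members and lists were chosen with earlier results of these data known. The scripts, in Python 3.11.15 with numpy 2.4.6, scipy 1.17.1, pandas 2.3.3 and matplotlib 3.10.9, were tested on simulated counts. Alternatives changed the UMI minimum, the mitochondrial limit, doublet removal, the total, the rod limits, the cone rule and free RNA.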

Additional observations from a re-analysis of the deposited data

Results flagged for a closer look

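For 3 genes the ratio of light damage to control had opposite directions in the rod classes, with intervals that excluded 0 in both. With 1 library per condition the difference was not tested. Rgs9 had a log2 ratio of 0.28 in cytoplasm-rich and -0.11 in nucleus-rich rods, and within nucleus-rich rods it ranged from -0.30 (40 to 50% unspliced) to 0.32 (60 to 70%). Guca1b had -0.21 in cytoplasm-rich and 0.14 in nucleus-rich rods, where no range of unspliced share gave more than 0.06. Gucy2e had 0.16 and -0.16, with values from -0.23 to 0.27 over the ranges of nucleus-rich rods.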

How the results depend on the processing

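The ratios of Rcvrn, Guca1a, Gnb5 and Pdc between the libraries were below 0 in both rod classes under every alternative run, with ranges in cytoplasm-rich and nucleus-rich rods of -0.69 to -0.50 and -0.78 to -0.30 (Rcvrn), -0.60 to -0.41 and -0.78 to -0.39 (Guca1a), -0.40 to -0.18 and -0.56 to -0.38 (Gnb5), and -0.42 to -0.24 and -0.36 to -0.02 (Pdc, at -0.02 over all UMIs). Unspliced Sag in cytoplasm-rich rods ran from -0.41 to 0.21. Of 91 ratios of members, 79 kept their sign when centred on the median gene, as did 90 of 90 with free RNA subtracted. Signs were kept in 62 of 71 ratios over all UMIs and in 78 of 86 with a minimum of 4000 UMIs. With limits chosen after seeing the data, they were kept in 23 of 29 for cone-rich droplets and 14 of 20 for rods of 50 to 60% unspliced. Centring turned Gnb5 in nucleus-rich against cytoplasm-rich control rods to -0.085. It gave 2 members lower by 1.5-fold in cytoplasm-rich rods and 1 in nucleus-rich rods (0 in each as reported), 1 higher in unspliced UMIs of cytoplasm-rich rods (0), 7 lower in cones (4), 8 lower in light-damaged cones against rods (5), 1 higher in control nucleus-rich rods (2), and 7 lower (3) and 0 higher (1) in light-damaged nucleus-rich against cytoplasm-rich rods. Over all UMIs, control cones against rods had 4 lower (2), and light-damaged nucleus-rich against cytoplasm-rich rods 6 lower (3) and 2 higher (1). A minimum of 1000 UMIs gave 2 lower in nucleus-rich rods (0). Unspliced UMIs of nucleus-rich rods had 1 lower (0) with a minimum of 1000 or 4000 UMIs and with rod limits of 10% and 50%. Control nucleus-rich rods had 1 higher (2) with a minimum of 1000 UMIs or without ribosomal and mitochondrial genes in the total. Control cones against rods had 1 lower (2) with a minimum of 1000 or 4000 UMIs, a mitochondrial limit of 5% or no doublet removal, and 1 higher (0) with a minimum of 4000. Among alternatives chosen after seeing the data, rods of 50 to 60% unspliced gave 2 lower, and 1 lower in unspliced UMIs. Cones under 50000 UMIs gave 7 lower between libraries and 1 in control against rods. Cone-rich droplets gave 1 higher between libraries (0), turned Guca1b to 0.24, and gave 7 lower in control and 8 in light-damaged cones against rods. Shares of all genes past 1.5-fold were not computed under the alternatives, so these counts of members have no background beside them. The causes were not tested. No paired analysis was possible because each group held 1 library, and for the same reason no replicate could be left out. Depth limited the classes of few droplets and the unspliced UMIs of cytoplasm-rich rods.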
